A study of Homo sapiens with 7 samples.

Results

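The first day of JMJD3c induction was examined by comparing the transcriptome of JMJD3c-hESCs after 1 day of doxycycline (Dox) with that of the same line before Dox was added. These are 2 of the 7 libraries of the study, with 1 library a side, and the comparison covered the 20187 of 22670 annotated entries that lie on chromosomes. The cells are SEES-3, an established human embryonic stem cell (hESC) line grown without feeder cells. JMJD3c-hESCs constitutively express the reverse Tet transactivator and carry a piggyBac transgene in which a Tet-responsive element drives the HA-tagged catalytic part of JMJD3 with an added nuclear localization signal, so that Dox at 1 µg/ml switches it on. Day 0 was left untreated and Day 1 had received 1 day of Dox. The later samples of the same line, at Days 2, 3 and 4 of Dox, are used only to follow the early changes. The JMJD3c mut-hESCs are a second SEES-3 line with the same kind of transgene, carrying a point mutation that removes the catalytic activity, and were sampled without Dox and after 4 days of Dox. The lines were stable clones obtained under puromycin, and how many clones entered a sample is not given in the sources used here. The mutant line was not analysed here after 1 day of Dox, so an effect of JMJD3c at Day 1 cannot be told apart from an effect of Dox or of the extra day in culture.

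JMJD3, encoded by KDM6B, removes methyl groups from lysine 27 of histone H3. Trimethylation of this residue (H3K27me3) is laid down by Polycomb repressive complex 2 (PRC2) and is read by Polycomb repressive complex 1 (PRC1), and in hESCs it covers the promoters of many developmental regulators that are kept silent or nearly so until differentiation. Such genes include transcription factors of the early nervous system, of the primitive streak, from which mesoderm and endoderm arise, and of the endoderm itself. A demethylase supplied from outside therefore allows the order in which these genes respond to be followed from the undifferentiated state.

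Values are FPKM, fragments per kilobase of transcript scaled to the mapped reads of the library, as the authors deposited them, and a bracketed range after an FPKM value is the 95% interval that Cufflinks gives for the estimate within that library. These intervals and the estimates below cover counting and read assignment, not the variation between cultures, and without replicates no test was made and no p-value is given. The cutoffs were those of the study. A gene was said to rise where its Day 1 FPKM was over 4 and above 2 times the untreated value, and to fall where the untreated FPKM was over 4 and Day 1 was below 0.5 times it. The untreated mutant library served as a second untreated reference, and the strictest calls required both ratios and intervals that did not overlap in either comparison. Log2 fold changes were taken after adding 1 FPKM to each value, so changes at low FPKM come out too small. Day 0 was the shallowest of the 7 libraries. From the steps that whole reads leave among low values, Day 1 was 1.5 times and the untreated mutant library 2.06 times as deep as Day 0, and the other 4 libraries were 1.37 to 1.93 times as deep.

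Both libraries of the comparison had the profile of undifferentiated hESCs. POU5F1, the OCT4 gene, had 841 FPKM at Day 0, 765 FPKM at Day 1 and 716 FPKM in the untreated mutant line. LIN28A stood at 485, 471 and 530 FPKM and NANOG at 108, 99.7 and 109 FPKM in the same 3 libraries. The other markers chosen beforehand, DNMT3B, SOX2 and TDGF1, were lower at Day 1 than at Day 0 with intervals apart. DNMT3B had 404, 280 and 369 FPKM, SOX2 136, 107 and 99.6 FPKM and TDGF1 224, 186 and 206 FPKM in the same order. Of the 12 fibroblast markers, DCN, LUM and FAP were listed at 0 in all 3 libraries, while 5 were above and none below both untreated libraries at Day 1, VIM among them. The summed level of the fibroblast list was 314 FPKM at Day 0, 371 FPKM at Day 1 and 252 FPKM in the untreated mutant line. Of the 16 trophoblast and amnion markers, CGA, ELF5 and GCM1 were listed at 0 in all 3 libraries, 5 were above and 1 below both untreated libraries at Day 1, and 7 were listed at 0 at Day 1. The summed level of that list was 31.2, 28.0 and 23.5 FPKM. Of all entries above 1 FPKM in the mean of the 3 libraries, 30.1% were above and 28.7% below both untreated libraries at Day 1. The part of other cell types in the results was not tested. In a bulk sample, a change in the share of cells that express a gene cannot be told apart from a change in the RNA per cell.

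KDM6B (ENSG00000132510, hg19 chr17:7743222-7758114, plus strand) is the gene whose catalytic part the transgene carries, and gene-level FPKM does not separate transgene from endogenous transcripts. Its level was 3.45 FPKM (1.98-5.0) at Day 0 and 158 FPKM (150-167) at Day 1, a log2 fold change of 5.16. It then stood at 212, 248 and 282 FPKM at Days 2, 3 and 4. The untreated mutant line had 2.40 FPKM (1.57-3.24) and the Dox-treated mutant line 454 FPKM. Both untreated libraries were therefore low and all Dox-treated libraries high, as their labels say, and 1 day of Dox gave the lowest of the induced levels. The related demethylase gene KDM6A was at 28.6, 30.0 and 30.3 FPKM at Day 0, at Day 1 and in the untreated mutant line.

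NEUROG3, which encodes a proneural basic helix-loop-helix (bHLH) factor best known from endocrine progenitors of the pancreas, was listed at 0 at Day 0, at 2.88 FPKM (1.09-4.63) at Day 1. Days 2, 3 and 4 had 0.793, 0 and 0.350 FPKM. The untreated and Dox-treated mutant lines had 0.233 and 0.266 FPKM. Its values were whole multiples of a smallest step, which corresponds to 9 reads at Day 1, 3 reads at Day 2, none at Days 0 and 3, and 1 read in each of the other 3 libraries. Day 1 was thus the highest library and its interval lay above those of both untreated libraries, but its level was under the 4 FPKM cutoff and rested on 9 reads. Its family member NEUROG1 had 2 reads at Day 1, 2 at Day 2, 1 in the untreated mutant line and none in the other 4 libraries.

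BMP4, which encodes a secreted ligand of the bone morphogenetic protein (BMP) pathway, was listed at 5.48 FPKM (0.656-14.2) at Day 0, 10.2 FPKM (4.16-17.6) at Day 1 and 5.16 FPKM (1.11-9.60) in the untreated mutant line. The Day 1 value was 1.86 and 1.97 times the untreated values, short of the cutoff against each, and its interval overlapped both. At Days 2, 3 and 4 the levels were 7.43, 6.76 and 6.75 FPKM, and the Dox-treated mutant line had 2.08 FPKM. Day 1 held the highest estimate of the 7 libraries without being separated from the untreated ones.

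MYC, which encodes a growth-promoting transcription factor, was listed at 53.3 FPKM (43.9-62.8) at Day 0 and 27.1 FPKM (21.4-33.0) at Day 1. The later days had 19.8, 21.3 and 22.4 FPKM. The untreated mutant line had 45.8 FPKM (39.9-51.8) and the Dox-treated mutant line 36.2 FPKM. All 4 Dox-treated libraries of the JMJD3c line lay below all 3 other libraries. The Day 1 interval was apart from both untreated intervals, while the ratios of 0.509 and 0.592 did not pass the cutoff for a fall.

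**Figure D1:**
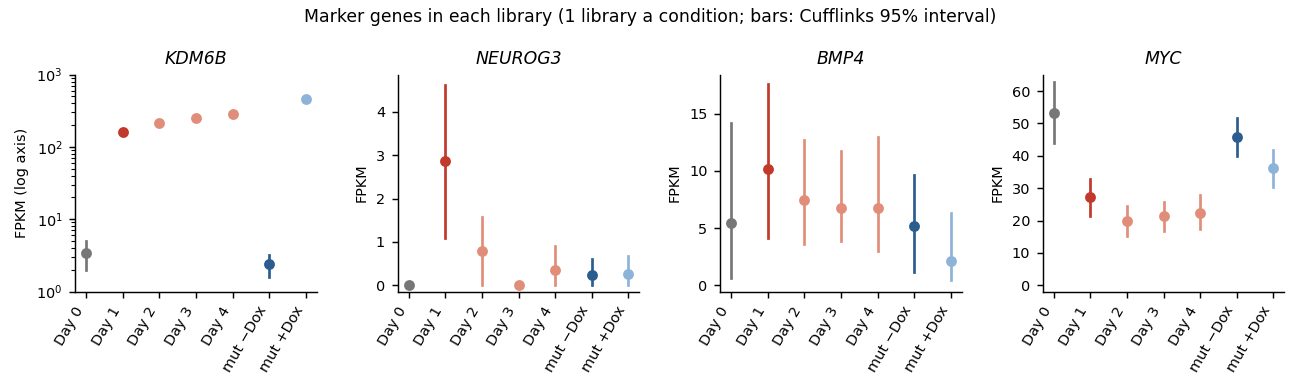
FPKM of KDM6B (log axis), NEUROG3, BMP4 and MYC in each of the 7 libraries, 1 point a library, with bars for the Cufflinks 95% interval. KDM6B is at 158 FPKM or more in every Dox-treated library, NEUROG3 peaks at 2.88 FPKM at Day 1, the BMP4 intervals of Day 0 and Day 1 overlap, and MYC is lower in the 4 Dox-treated JMJD3c libraries than in the other 3.

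Relative to Day 0, 355 entries rose at Day 1 (1.76% of the 20187 entries) and 333 fell (1.65%). Of those that rose, 12 were listed at 0 at Day 0, and of those that fell, 5 were listed at 0 at Day 1. Against the untreated mutant library, 571 entries rose (2.83%) and 185 fell (0.916%). Many of the changes against Day 0 were not shared by the second reference. Of the 355 rises, 43.4% were also called against the untreated mutant line, and in 110 (31.0%) the untreated mutant library was itself above 2 times Day 0. Of the 333 falls, 10.2% were also called against the untreated mutant line, and in 189 (56.8%) that library was itself below 0.5 times Day 0. With intervals apart, the numbers against Day 0 were 70 rises (0.347%) and 39 falls (0.193%). Against both untreated libraries with intervals apart, 31 entries rose (0.154%) and 3 fell (0.0149%), and 154 rose (0.763%) and 34 fell (0.168%) where intervals were not considered.

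The base composition of the transcripts moved with these comparisons. From the lowest to the highest of 20 bins of transcript GC content (median 35.5% and 66.0%), the median log2 fold change went from -0.25 to 0.26 against the untreated mutant line and from 0.02 to -0.16 against Day 0. The median thus ran with GC content, in opposite directions for the 2 references, and its part in the results was not tested beyond the following alternative. The medians of the bins were taken without the added 1 FPKM, over entries above 10 FPKM at Day 0, at Day 1 and in the untreated mutant line. After they were subtracted, an alternative chosen after seeing the data, 27 of the 31 rises and 1 of the 3 falls remained. LHX1 and CHTF8, among the 27, had no GC value and were left unadjusted, so they could not be lost. The rises lost were LEFTY1, FOXA2, PEX6 and HMCN2 and the falls lost were DNAJC19 and C9orf41. The 29 rises with a GC value had a median GC content of 54.5%, the 3 falls 37.4% and the entries above 4 FPKM at Day 1 47.7%.

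**Figure D2:**
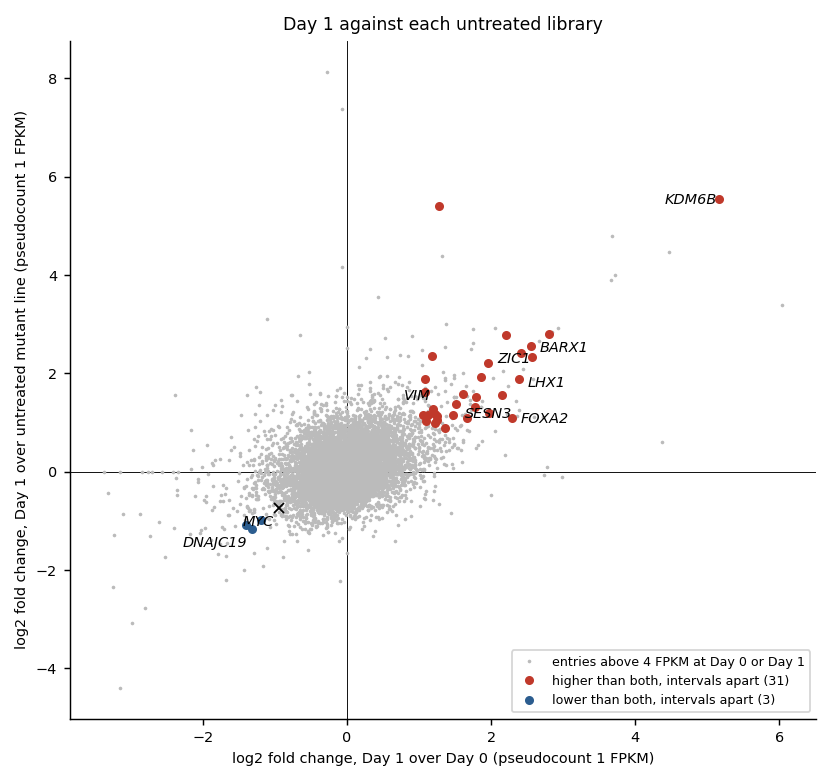
Log2 fold change of Day 1 over Day 0 (horizontal) against that over the untreated mutant line (vertical), with 1 FPKM added to each value, for the 10196 entries above 4 FPKM at Day 0 or Day 1. The 31 entries that rose against both with intervals apart are red, the 3 that fell are blue, and MYC (cross) lies just short of the falls. Both axes share the Day 1 library, so a diagonal trend is built in.

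The 31 rises fell into a few kinds by the textbook role of their products. KDM6B is the gene carried in part by the transgene. Developmental transcription factors made up 9 of the 31 (BARX1, FEZF1, FOXA2, FOXD1, LHX1, OLIG3, POU3F1, SIX2 and ZIC1). Genes of the matrix, adhesion and cytoskeleton made up 5 (COL4A5, HMCN2, ITGA5, RHOU and VIM), chromatin and corepressor proteins 3 (BCORL1, H1F0 and PHC2), and secreted signals or enzymes that handle a morphogen 2 (CYP26A1 and LEFTY1). Another 3 were readthrough entries, and 8 were of other or less known roles (BRINP1, CHTF8, GPR50, KIAA1324L, LRRN2, PEX6, SESN3 and STON1). These roles were assigned after the list was known. The share of each kind among all entries was not counted, so these numbers are a description.

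To show what lies in front of genes that rose, the 250 bases before the annotated start are given for ZIC1 and OLIG3, neural regulators among the rises, and for NEUROG3, with capitals marking CpG dinucleotides. The sequences are those of RefSeq on GRCh38.p14, a different build from the hg19 coordinates of the expression values, written on the strand of the gene (chr3:147409115-147409364, plus strand; chr6:137494395-137494644, minus strand; chr10:69573423-69573672, minus strand).
ZIC1: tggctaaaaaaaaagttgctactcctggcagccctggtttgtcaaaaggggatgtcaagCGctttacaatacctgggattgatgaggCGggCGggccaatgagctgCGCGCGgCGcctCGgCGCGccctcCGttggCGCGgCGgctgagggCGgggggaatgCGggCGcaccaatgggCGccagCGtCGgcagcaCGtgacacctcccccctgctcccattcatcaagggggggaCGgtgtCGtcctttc
OLIG3: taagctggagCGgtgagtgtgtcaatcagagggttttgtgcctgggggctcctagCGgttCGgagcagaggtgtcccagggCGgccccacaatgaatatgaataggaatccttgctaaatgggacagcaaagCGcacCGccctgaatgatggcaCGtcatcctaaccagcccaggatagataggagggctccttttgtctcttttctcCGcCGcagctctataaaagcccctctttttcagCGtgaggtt
NEUROG3: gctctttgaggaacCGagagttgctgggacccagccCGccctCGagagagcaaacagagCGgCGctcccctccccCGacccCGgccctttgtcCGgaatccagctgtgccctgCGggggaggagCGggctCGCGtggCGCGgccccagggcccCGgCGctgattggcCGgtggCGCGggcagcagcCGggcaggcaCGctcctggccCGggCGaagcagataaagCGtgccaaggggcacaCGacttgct

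The ZIC1 and NEUROG3 windows are dense in CpG, with 23 and 25 dinucleotides, and the OLIG3 window has 10. Among the 24 rises with a promoter in the RefSeq table the median was 21, with a range from 1 to 36, against 22 for the 7550 genes above 4 FPKM at Day 1, 5 for the 4873 genes under 1 FPKM at Day 0 and 11 for all 27305 promoters. The motif TATAAA, searched on both strands, occurred in OLIG3 alone of the 24 (4.17%), in 4.50% of the genes above 4 FPKM and in 11.1% of all promoters. The median of the rises was thus near that of expressed genes and above that of genes under 1 FPKM, which is a description of these windows. BARX1, FOXA2, H1F0, KIAA1324L, LEFTY1, LHX1 and STON1 are named only.

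Among the 9 transcription factors, FEZF1 and ZIC1, regulators of the early nervous system, had the highest levels at Day 1. FEZF1 (ENSG00000128610, hg19 chr7:121941448-121950745, minus strand), a zinc finger repressor of the forebrain, was listed at 6.64 FPKM (1.75-11.6) at Day 0, 25.5 FPKM (19.2-31.8) at Day 1 and 8.20 FPKM (5.25-11.1) in the untreated mutant line, 3.84 and 3.11 times. It stayed at 24.0, 22.9 and 16.5 FPKM at Days 2, 3 and 4, and the Dox-treated mutant line had 5.11 FPKM. ZIC1 (ENSG00000152977, hg19 chr3:147111682-147134506, plus strand), a zinc finger factor of the neural plate border and dorsal neural tube, went from 4.99 FPKM (1.23-10.4) to 22.2 FPKM (13.02-31.5), against 4.04 FPKM (1.51-7.16) in the untreated mutant line. Its later levels were 22.0, 26.2 and 15.8 FPKM, with 6.47 FPKM in the Dox-treated mutant line. The ZIC1 entry overlaps ZIC4, and its reads may be shared with it. For both genes all 4 Dox-treated JMJD3c libraries lay above the other 3, and the Day 1 level was exceeded later by ZIC1 at Day 3 alone.

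OLIG3 (ENSG00000177468, hg19 chr6:137813336-137815531, minus strand), a bHLH factor of dorsal neural progenitors, was listed at 1.41 FPKM (0.256-2.56), 8.46 FPKM (5.80-11.1), 20.4, 10.3 and 10.1 FPKM over Days 0 to 4. The untreated and Dox-treated mutant lines had 3.15 FPKM (1.86-4.34) and 0.313 FPKM. The Day 1 level was 6.01 and 2.69 times the untreated ones, and the highest library was Day 2. POU3F1, a POU factor of early neural commitment, stood at 1.44, 4.81, 1.94, 5.01 and 3.46 FPKM over Days 0 to 4 and at 1.80 and 1.14 FPKM in the untreated and Dox-treated mutant lines. Its Day 2 level was near the untreated ones, so this rise was not kept in every later library.

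BARX1 (ENSG00000131668, hg19 chr9:96713905-96717654, minus strand), a homeobox factor of the stomach mesenchyme and of tooth-forming tissue, went from 2.11 FPKM (0-4.73) to 17.5 FPKM (12.8-22.3), against 2.68 FPKM (1.06-4.3) in the untreated mutant line, a ratio of 8.27 and 6.52. At Days 2, 3 and 4 it was at 6.66, 6.69 and 4.94 FPKM, and the Dox-treated mutant line had 1.95 FPKM. Day 1 stood apart from every other library, above all later days. FOXD1, a forkhead factor of kidney stroma and retina, was at 1.90, 7.07, 4.20, 5.06 and 5.36 FPKM over Days 0 to 4, with 2.64 and 0.754 FPKM in the untreated and Dox-treated mutant lines. SIX2, which marks nephron progenitors, was at 1.68, 4.68, 3.56, 1.60 and 2.66 FPKM, with 0.545 and 0.156 FPKM in the mutant line. Both were highest at Day 1.

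LHX1 (ENSG00000132130, hg19 chr17:35294084-35301917), a LIM homeobox factor of the organizer and primitive streak, was listed at 0 at Day 0, 4.21 FPKM (3.00-5.46) at Day 1 and 6.42, 11.2 and 15.9 FPKM at Days 2, 3 and 4. The untreated mutant line had 0.417 FPKM (0.132-0.727) and the Dox-treated mutant line 0.318 FPKM. FOXA2 (ENSG00000125798, hg19 chr20:22561643-22566093, minus strand), a forkhead factor of endoderm and notochord, was listed at 0.255 FPKM (0-1.02) at Day 0, 5.12 FPKM (3.24-6.99) at Day 1 and 14.8, 20.4 and 27.2 FPKM on the later days. The mutant line had 1.86 FPKM (0.868-2.85) without Dox and 2.27 FPKM with Dox, so its ratio at Day 1 was 20.04 against Day 0 and 2.75 against the mutant line. Unlike BARX1 and FOXD1, LHX1 and FOXA2 were lowest of the Dox-treated days at Day 1 and highest at Day 4.

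**Figure D3:**
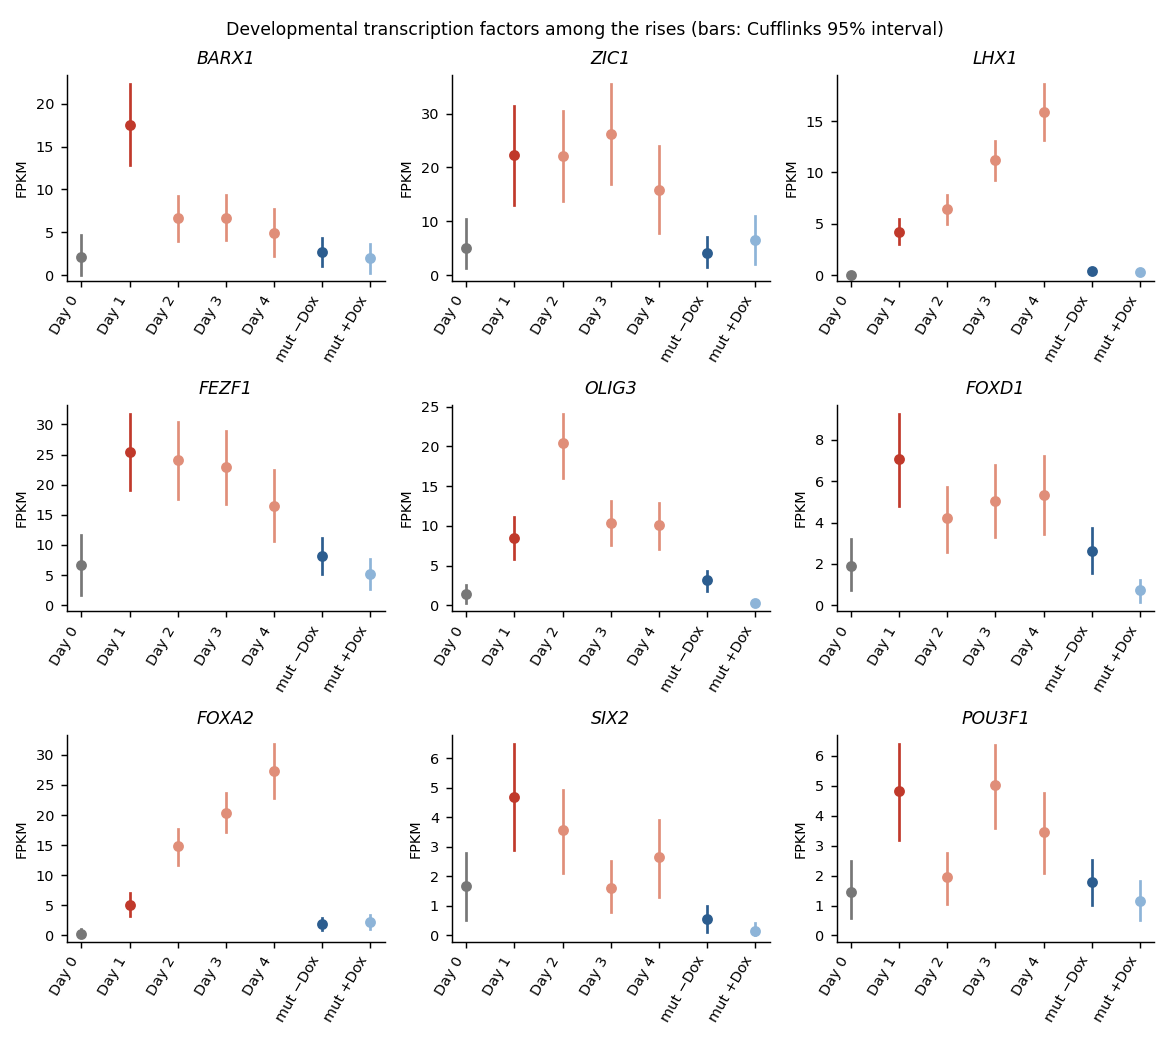
FPKM of the 9 developmental transcription factors among the rises in each of the 7 libraries, 1 point a library, with bars for the Cufflinks 95% interval. BARX1, FOXD1 and SIX2 are highest at Day 1, FEZF1 and ZIC1 hold a similar level over Days 1 to 3, and LHX1 and FOXA2 climb to 15.9 and 27.2 FPKM at Day 4.

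Of the signalling genes, CYP26A1, the enzyme that breaks down retinoic acid, was listed at 2.63, 10.5, 29.0, 35.5 and 48.8 FPKM over Days 0 to 4. The untreated and Dox-treated mutant lines had 4.40 and 2.27 FPKM. Its Day 1 interval of 7.58-13.6 FPKM lay above the 4.68 and 5.96 FPKM upper bounds of the untreated libraries. LEFTY1, a secreted antagonist of NODAL, was listed at 19.7, 43.3, 45.5, 59.2 and 70.0 FPKM, with 20.7 and 10.6 FPKM in the mutant line. At 2.20 and 2.09 times, LEFTY1 was the rise nearest to the cutoff, and just outside lay SOX3, an early neural SOX factor, at 1.98 and 2.90 times with intervals apart from both.

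Among the chromatin genes, PHC2, a Polyhomeotic subunit of PRC1, was listed at 4.55, 10.5, 9.53, 11.8 and 18.2 FPKM over Days 0 to 4 and at 4.18 and 6.15 FPKM in the untreated and Dox-treated mutant lines. BCORL1, a corepressor related to the BCOR subunit of a variant PRC1, was at 0.929, 6.02, 4.82, 5.95 and 4.21 FPKM, with 0.853 and 1.43 FPKM in the mutant line. H1F0, the linker histone that accumulates in cells leaving proliferation, was at 23.3, 54.1, 46.4, 49.7 and 28.9 FPKM, with 9.75 and 7.92 FPKM in the mutant line. The untreated levels of H1F0 differed between the lines by more than 2 times, and its Day 1 level was 2.33 times Day 0 and 5.55 times the mutant line. All 3 genes kept a level above both untreated libraries on each later day.

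VIM, the intermediate filament of mesenchymal cells, had 46.9 FPKM (38.4-55.6) at Day 0, 108 FPKM (97.5-119) at Day 1, and 211, 413 and 704 FPKM on the later days. The mutant line had 44.1 FPKM without Dox and 138 FPKM with Dox, so VIM was also more than 2 times higher in the mutant line after 4 days of Dox. COL4A5, a basement membrane collagen chain, was at 3.05, 16.9, 11.9, 10.3 and 8.72 FPKM over Days 0 to 4, with 5.09 and 4.07 FPKM in the untreated and Dox-treated mutant lines. ITGA5, the alpha chain of the fibronectin receptor, was at 2.25, 10.1, 8.93, 12.8 and 16.2 FPKM, with 3.44 and 3.01 FPKM. RHOU, a small GTPase, went from 1.48 to 4.77 FPKM, against 1.90 FPKM in the untreated mutant line. The HMCN2 name has 4 separate entries. The one called, hg19 chr9:133259836-133261889, was listed at 0 in both untreated libraries, at 4.33 FPKM (0.810-7.29) at Day 1 and at 0 at Days 3 and 4. The 3 others were not called and stayed under 1 FPKM at Day 1, so HMCN2 is uncertain as a gene that rose.

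The other rises reached between 4.37 and 23.8 FPKM at Day 1. SESN3, a sestrin of the stress and nutrient response, was at 6.33, 19.9, 15.2, 6.14 and 5.11 FPKM over Days 0 to 4 and lay below both untreated libraries at Days 3 and 4, with 7.04 and 4.91 FPKM in the mutant line. LRRN2, a leucine-rich repeat protein of neurons, was at 1.03, 5.22, 5.57, 10.8 and 10.9 FPKM, with 1.09 and 1.35 FPKM. BRINP1, a neural protein, was at 1.69, 5.88, 5.49, 7.74 and 8.21 FPKM, with 2.73 and 2.08 FPKM. KIAA1324L went from 9.37 to 23.8 FPKM, GPR50 from 1.93 to 5.79 FPKM, STON1 from 1.90 to 5.30 FPKM and PEX6, a peroxisome assembly factor, from 1.54 to 4.37 FPKM. STON1 and PEX6 overlap other entries.

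The readthrough entries TVP23C-CDRT4, TRIM39-RPP21 and HSPE1-MOB4, and a CHTF8 entry that overlaps another of the same name, share their reads with the genes they span and are uncertain. HSPE1-MOB4 was listed at 16.5, 41.5, 22.6, 2.21 and 28.2 FPKM over Days 0 to 4 and at 5.61 FPKM in the Dox-treated mutant line, with no order by treatment. TVP23C-CDRT4 was at 6.01 FPKM at Day 1, 4.22 FPKM at Day 3 and 3.78 FPKM in the Dox-treated mutant line, and close to 0 in the other 4 libraries. Among the 31 rises, 8 overlap another entry, against 2818 of the 9758 entries above 4 FPKM at Day 1.

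The 3 falls were DNAJC19, CHMP3 and C9orf41. DNAJC19, a subunit of the mitochondrial import motor, was listed at 29.0 FPKM (18.1-40.0) at Day 0, 11.0 FPKM (6.0-16.1) at Day 1 and 25.7 FPKM (18.8-32.6) in the untreated mutant line, but at 22.8, 16.4 and 16.1 FPKM on the later days and 14.3 FPKM in the Dox-treated mutant line. CHMP3, an ESCRT-III subunit whose entry overlaps a readthrough entry, was at 17.3, 5.90, 13.5, 9.36 and 18.7 FPKM over Days 0 to 4, with 13.7 and 12.6 FPKM in the mutant line. C9orf41 was at 27.5, 11.5, 12.3, 13.4 and 16.5 FPKM, with 23.7 and 15.1 FPKM. All 3 were above their Day 1 level on each later day, and all 3 were also lower in the mutant line with Dox than without.

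Single genes show the changes against Day 0 that the untreated mutant line did not share. PIGP, which acts in glycosylphosphatidylinositol anchor synthesis, was listed at 2.47 FPKM (0-6.10) at Day 0 and 14.9 FPKM (7.35-20.7) at Day 1, but the untreated mutant line had 11.5 FPKM. YBEY, an endoribonuclease, had 10.4, 33.4 and 29.2 FPKM at Day 0, at Day 1 and in the untreated mutant line. ARPC3, a subunit of the actin-nucleating Arp2/3 complex, was at 198 FPKM (145-251) at Day 0, 80.9 FPKM (64.3-97.8) at Day 1 and 93.9 FPKM in the untreated mutant line, and ATP13A2 was at 61.7, 22.2 and 27.9 FPKM. In each of these genes Day 1 lay within 1.5 times of the untreated mutant line, and the Day 0 and Day 1 intervals were apart. The Day 0 intervals of PIGP and YBEY overlapped those of the untreated mutant line. LRP10 had 2.49, 9.03 and 6.21 FPKM, RTTN 11.1, 3.81 and 4.21 FPKM, HMHA1 12.5, 4.65 and 6.53 FPKM, and the non-coding RP11-297M9.1 13.5, 2.46 and 2.99 FPKM in the same order, and RP11-343C2.12 and CTD-3074O7.11 overlap other genes.

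The 31 rises were followed on the later days. At Days 2, 3 and 4, 23, 23 and 17 of them were above 2 times both untreated libraries, against 125, 144 and 178 of the 9758 entries above 4 FPKM at Day 1. Of the 31, 16 had their highest level of the time course at Day 1 and 11 at Day 4, against 1811 and 1982 of the 9758. The untreated libraries and Day 1 chose the 31, so these counts are a description and partly set by that choice. Against the Dox-treated mutant line, 25 of the 31 were higher on each of Days 2, 3 and 4. More than 2 times above it on each of these days were 18 of the 31 (58.1%). The choice had already required Day 1 to be above 2 times the untreated mutant line, so these counts are partly set by it too. Among the 9758 entries, which were not chosen in this way, the share more than 2 times above was 2.22%. Days 2 and 3 of Dox were compared there with a mutant library at Day 4, so time and line cannot be told apart. Within the mutant line, 6 of the 31 were more than 2 times higher with Dox than without, beside 108 of the 9758 entries. They were KDM6B, VIM and the 4 uncertain overlapping entries, of which TRIM39-RPP21 was close to 0 FPKM in both mutant libraries. The median log2 fold change of the 31 within the mutant line was -0.10, and that of the 9758 was 0.002.

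Pluripotency genes were mostly a little lower at Day 1, and none passed the cutoff against Day 0. Of the 23 listed, 20 were below and 3 above Day 0 (52.3% of all entries above 1 FPKM were below), 13 were below both untreated libraries, and the median log2 fold change was -0.19 against Day 0 and -0.14 against the untreated mutant line. Among the 12341 entries above 1 FPKM in the mean of the 3 libraries, 28.7% were below both and the medians were -0.02 and 0.04. DNMT3B, the de novo DNA methyltransferase of pluripotent cells, was listed at 404, 280, 267, 249 and 191 FPKM over Days 0 to 4, with 369 and 308 FPKM in the mutant line, and its Day 1 interval was apart from both. SOX2 stood at 136, 107, 107, 80.9 and 65.9 FPKM, with 99.6 and 74.6 FPKM in the mutant line, and UTF1 at 125, 83.7, 50.7, 39.0 and 21.5 FPKM, with 72.9 and 55.2 FPKM. At Day 1 both were below Day 0 but not below the untreated mutant line. In the Dox-treated mutant library 21 of the 23 were below both untreated libraries, against 4044 of the 12341 entries. OTX2, also an anterior neural factor, went the other way, with 18.9, 35.3, 44.8, 43.0 and 47.7 FPKM over Days 0 to 4 and 15.2 and 7.50 FPKM in the mutant line, 1.87 times Day 0 and 2.31 times the untreated mutant line at Day 1.

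Genes of the ribosome biogenesis list were lower without exception against Day 0. Most encode nucleolar proteins that process ribosomal RNA and assemble the subunits, and the metabolic enzyme genes ODC1 and CAD were also listed. All 25 were below Day 0 at Day 1 (52.3% of the 12341 entries above 1 FPKM) and 22 were below both untreated libraries (28.7%). Intervals were apart from both in 5 (NCL, NPM1, NOP16, NOLC1 and PES1), which held for 0.438% of these entries on the lower side and 0.551% on the higher. Intervals are relatively narrower at high levels, and these shares were not matched for level. Intervals were also apart from both in 3 of 23 pluripotency genes on the lower side and 6 of 13 mitochondrial mRNAs on the higher. Against Day 0, the log2 fold changes of the ribosome biogenesis members ran from -0.86 to -0.03. Against the untreated mutant line they ran from -1.20 to 0.32. None passed the cutoff against Day 0, and 3 fell against the untreated mutant line (POLR1B, UTP20 and WDR43), beside 0.916% of all entries. The median log2 fold changes were -0.28 and -0.43. Subtracting the GC bins gave -0.23 and -0.42. PES1, a factor of large subunit maturation, was listed at 110 FPKM at Day 0, 68.0 FPKM at Day 1 and 105 FPKM in the untreated mutant line, and NCL, which encodes nucleolin, at 1073, 882 and 1163 FPKM. FBL, PPAN and CAD were the members not below the untreated mutant line, with 543, 28.7 and 33.4 FPKM at Day 1 against 443, 27.9 and 26.5 FPKM in the untreated mutant line. On Days 2, 3 and 4, 22, 19 and 19 of the 25 were below both untreated libraries. Of the 12341 entries, 3978, 3722 and 4557 were. In the Dox-treated mutant library 2 of the 25 were below both and 13 were above both, against 4044 and 3497 of the 12341. Of the MYC network, MXD3, an antagonist of MYC, was called against Day 0 with 4.08 and 9.17 FPKM, but had 6.22 FPKM in the untreated mutant line and overlapping intervals.

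**Figure D4:**
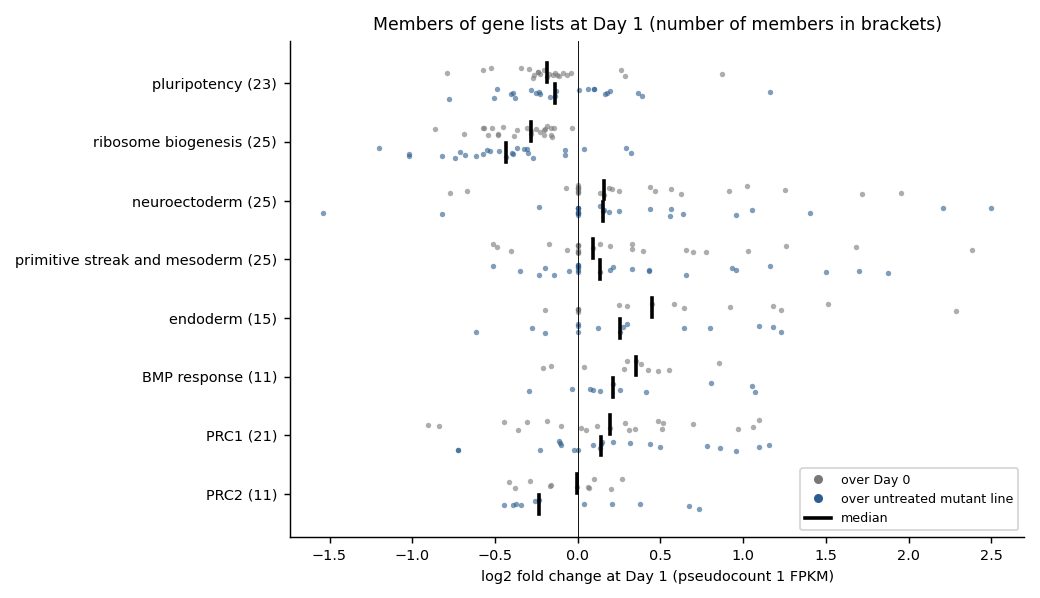
Log2 fold changes at Day 1 of the members of 8 gene lists over Day 0 (grey) and over the untreated mutant line (blue), 1 point a gene, with black bars for the medians. The ribosome biogenesis members lie to the left of 0 over Day 0 without exception, at medians of -0.28 and -0.43, and the neuroectoderm list has a tail to the right.

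Neuroectoderm genes held the largest number of rises against Day 0 of the lists, 4 of 25 (PAX6, POU3F1, SIX3 and ZIC1). Over all entries 1.76% rose, and no gene of the list fell against Day 0. The lists differ in length, and p53 targets with 3 of 20 and fibroblast markers with 2 of 12 held similar shares. Against the untreated mutant line 5 neuroectoderm genes rose (LHX5, PAX6, POU3F1, SOX3 and ZIC1) and 2 fell (HESX1 and SIX6), beside 2.83% and 0.916% of all entries. SIX6, an eye field factor, was listed at 0.870 FPKM at Day 0, 1.16 FPKM at Day 1 and 5.27 FPKM in the untreated mutant line, with the last 2 intervals apart. All but 9 of the 25 were at or under 1 FPKM in the mean of the 3 libraries, and 15 were listed at 0 at Day 0. PAX6, a regulator of forebrain and eye, was listed at 2.22, 9.62, 6.43, 2.72 and 5.91 FPKM over Days 0 to 4, with 0.879 and 0.517 FPKM in the mutant line, and passed both cutoffs, although its interval overlapped that of Day 0. SIX3, which patterns the forebrain, was at 6.64, 14.5, 15.4, 15.9 and 13.2 FPKM, with 8.99 and 7.87 FPKM, and passed only against Day 0. SOX3 was at 9.61, 19.0, 21.1, 21.4 and 17.1 FPKM, with 6.56 and 7.00 FPKM. Of the genes that did not follow, GBX2, of the anterior hindbrain, had 14.7 FPKM at Day 0, 8.20 FPKM at Day 1 and 9.80 FPKM in the untreated mutant line, and HESX1 had 5.01, 2.79 and 5.68 FPKM. RAX was listed at 0 in all 3. Of the 15 proneural bHLH genes OLIG3 alone was called, 12 were listed at 0 at Day 0, and NEUROG2 was listed at 0 at Day 1.

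Primitive streak, mesoderm and endoderm genes were mostly still low at Day 1. LHX1 was the sole call against Day 0 among 25 streak and mesoderm genes and FOXA2 among 15 endoderm genes, beside rises in 1.76% of all entries. T (brachyury) was listed at 0.804, 2.68, 10.2, 22.4 and 23.6 FPKM over Days 0 to 4, with 0.133 and 0.892 FPKM in the mutant line. EOMES was at 0, 1.39, 10.9, 22.0 and 38.2 FPKM, with 0.257 and 0.196 FPKM, and MIXL1 at 4.43, 4.79, 15.2, 23.5 and 41.0 FPKM, with 6.35 and 3.29 FPKM. SOX17, the endoderm regulator, was listed at 0 at Days 0 and 1 and at 3.05, 10.9 and 20.3 FPKM afterwards, and CER1, a secreted antagonist of NODAL, BMP and Wnt, at 0, 1.85, 34.0, 84.1 and 134 FPKM. These genes were at under 5 FPKM at Day 1 and above 10 FPKM at Day 3. Of the streak and mesoderm list, 13 were above Day 0 at Day 1, 5 below and 7 equal. KDR went down, with 13.1, 9.06, 5.51, 5.37 and 3.79 FPKM over Days 0 to 4 and 13.4 and 10.2 FPKM in the mutant line. Its Day 1 interval was apart from both untreated libraries. The median log2 fold change of the streak and mesoderm list against Day 0 was 0.09 at Day 1 and 0.41 at Day 4. Of the endoderm list, 8 of 15 were above both untreated libraries at Day 1, as were 30.1% of all entries above 1 FPKM. The median of the log2 fold changes against Day 0 was 0.45 at Day 1 and then 1.30, 2.61 and 3.58.

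**Figure D5:**
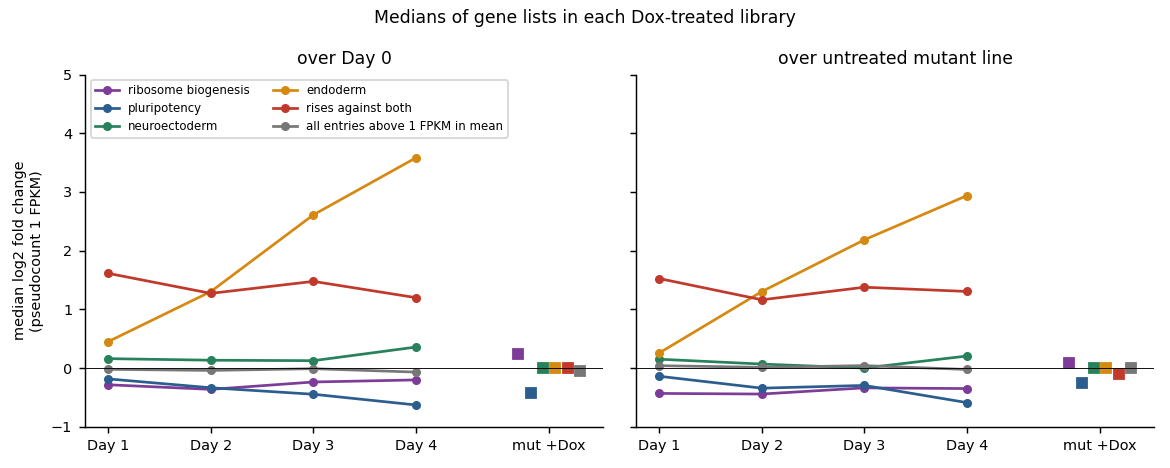
Median log2 fold change of 4 gene lists, of the 31 rises and of all entries above 1 FPKM, over Day 0 (left) and over the untreated mutant line (right), at Days 1 to 4 of Dox (circles) and in the Dox-treated mutant line (squares). The endoderm median climbs from 0.45 at Day 1 to 3.58 at Day 4 over Day 0, the ribosome biogenesis median is below 0 on all 4 days and above 0 in the Dox-treated mutant line, and the 31 rises were chosen on their Day 1 values.

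The BMP pathway had no call against Day 0 among 25 ligands, receptors and antagonists and among 11 response genes. Of the ligands, BMP7 was listed at 21.4, 28.4 and 13.5 FPKM at Day 0, at Day 1 and in the untreated mutant line, and BMP2 at 0.992, 1.10 and 0.802 FPKM. Of the response genes, 9 were above and 2 below Day 0, and 7 were above both untreated libraries (30.1% of all entries above 1 FPKM), with medians of 0.36 and 0.21 on the log2 scale. ID2 stood at 19.4, 28.9 and 16.1 FPKM and ID3 at 49.9, 70.1 and 52.3 FPKM in the same 3 libraries, while ID1, the third of these inhibitors of bHLH factors, was at 65.2, 56.3 and 48.4 FPKM. The antagonist CHRD was at 0.241, 1.65 and 0.935 FPKM. LEFTY1 was the sole call against Day 0 of 13 NODAL pathway genes. NODAL itself had 68.2, 56.6 and 55.3 FPKM, and LEFTY2 5.38, 8.54 and 3.27 FPKM. None of the Wnt ligands, Wnt targets, FGF ligands, ERK feedback genes or Notch pathway genes was called against Day 0. Over all entries 1.76% rose and 1.65% fell. For lists as short as those of this paragraph, so few calls are near that share and are a description.

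Of the Polycomb machinery itself, none of 11 PRC2 genes and 1 of 21 PRC1 genes (PHC2) was called against Day 0. Over all entries 1.76% rose and 1.65% fell, so these counts are near that share and are a description. EZH2, the methyltransferase that deposits H3K27me3, was listed at 27.5, 31.8 and 30.9 FPKM at Day 0, at Day 1 and in the untreated mutant line, and JARID2, a PRC2 accessory protein, at 100.3, 75.0 and 97.5 FPKM with intervals apart from both. Of the HOX genes, which carry H3K27me3 over whole clusters in hESCs, none of 39 was called, and 34 were listed at 0 at Day 0 and 29 at Day 1. HOXB2 had the highest HOX level at Day 1, at 2.14 FPKM, against 0.688 FPKM at Day 0 and 0 in the untreated mutant line.

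Of the calls among p53 targets, immediate early genes and ATF4 targets against Day 0, that of NR4A1 alone was also made against the second reference. Of 20 p53 targets, GADD45A, PLK2 and TP53INP1 rose and MDM2 fell against Day 0 (1.76% and 1.65% of all entries), and none was called against the untreated mutant line. MDM2 was listed at 50.05, 23.8 and 30.2 FPKM and PLK2 at 4.28, 8.84 and 7.12 FPKM at Day 0, at Day 1 and in the untreated mutant line. Among 27 immediate early genes FOS and NR4A1 fell against Day 0. NR4A1, at 7.96, 2.67 and 5.51 FPKM, also passed against the untreated mutant line, with overlapping intervals. CHAC1, at 12.1, 4.03 and 7.43 FPKM, was the sole call of 22 ATF4 targets. None of the 29 cell cycle genes, 14 housekeeping genes or 7 CDK inhibitors was called against Day 0, and their medians were 0.01, -0.05 and 0.12 on the log2 scale. Against the untreated mutant line their medians were 0.05, -0.001 and 0.52. There 1 cell cycle gene and 2 CDK inhibitors rose and 1 housekeeping gene fell, beside 2.83% and 0.916% of all entries. Of the CDK inhibitors, 5 were above both untreated libraries and none below, beside 30.1% and 28.7% of all entries above 1 FPKM. Against Day 0, the fibroblast markers VIM and S100A4 were called, S100A4 with 1.71 and 4.57 FPKM and overlapping intervals. The 13 mitochondrial mRNAs had a median of 0.12 against Day 0 and 0.52 against the untreated mutant line, without a call against Day 0. Against the untreated mutant line MT-ND3, MT-ND4L and MT-ATP8 rose, beside 2.83% of all entries.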

How the data were processed

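Total RNA was poly(A)-selected and made into directional libraries, which were sequenced as single-end MiSeq reads of 150 bases. The authors aligned them to hg19 using TopHat 2.0.13 and deposited, per library, the FPKM of each gene from Cufflinks 2.1.1 with its lower and upper 95% bounds; the submitters' processing notes also name CASAVA 1.4. Read counts were not used here, and FPKM values do not state depth, so relative depth was taken from the commonest ratio of low values. Of the 22670 entries, 2483 off the chromosomes were at 0 in every library and were left out. Cufflinks marked 35 entries per library as having too little data, and 101, 123 and 145 entries at Day 0, at Day 1 and in the untreated mutant line had an FPKM outside their own interval. All of these were kept. An interval from 0 to 0 adds no uncertainty where intervals are compared.

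Entries were matched by identifier and locus. Ratios and intervals were compared as given in the results, after the study's cutoffs of a fold change of 2 and 4 FPKM, with 1 library a side and no test. The named genes were 4 markers, the 15 largest rises and all falls against both untreated libraries ranked by the smaller log2 fold change, list members called against Day 0, and 5 rises and 5 falls within 0.67 to 1.5 times the untreated mutant line. The other rises and list members were named after their values were seen. The members, lists and alternatives were chosen with earlier results of these data known. Within a list, a name with several entries took the entry with the highest mean FPKM, and MYCL1 and SC5DL were not found under these symbols. GC content was that of each gene's longest GENCODE release 44 transcript, on GRCh37, and promoters from RefSeq. Calculations used Python 3.11.15, numpy 2.4.6, pandas 2.3.3 and matplotlib 3.10.9 and were tested on simulated data. The alternatives changed the FPKM cutoff, the ratio, the reference, the use of intervals, the pseudocount, the scaling, the entries of a shared name and, added after seeing the data, GC content.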

Additional observations from a re-analysis of the deposited data

How the results depend on the processing

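The counts of calls depended on the cutoffs. With a cutoff of 1 FPKM, 883 entries rose and 691 fell against Day 0. With a cutoff of 10 FPKM, 111 rose and 150 fell, and 14 rose against both untreated libraries. At a ratio of 3, 134 rose and 103 fell against Day 0, and 12 rose and 0 fell against both. With the untreated mutant line as the reference, 571 rose and 185 fell. Requiring intervals apart left 70 rises and 39 falls against Day 0, and without the intervals 154 rose and 34 fell against both. Centring within 20 GC bins, added after seeing the data, left 1 fall against both. With a pseudocount of 4 FPKM the log2 fold change of KDM6B was 4.44. Scaling kept all 31 rises and all 3 falls. Of the single named genes, 163 of the alternative values lay within the range the intervals allow and 20 outside it, and 1 reversed, CTD-3074O7.11 at -0.063 against the untreated mutant line. Of the list medians, 202 alternative values lay within that range and 6 outside, and 2 reversed against the untreated mutant line, glycolysis and hypoxia response at 0.16 (-0.30 against Day 0) and cholesterol synthesis at -0.22 (0.10 against Day 0). The cause was not tested in any of these.

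No paired analysis was possible because each condition has 1 library and the labels give no replicate numbers. For the same reason no replicate was left out in turn. Day 0 is the shallowest library, so genes of low FPKM are least certain there.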

Other observations

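Genes of glycolysis and the hypoxia response, whose median reversed between the references as given above, showed how far the reading of the first day depends on the untreated library. Of 21 genes, 16 were below Day 0 at Day 1 and 16 were above the untreated mutant line, and 4 were below both. Of all entries above 1 FPKM, 52.3% were below Day 0, 46.3% below the untreated mutant line and 28.7% below both. LDHA, lactate dehydrogenase A, was listed at 733, 586, 291, 242 and 238 FPKM over Days 0 to 4, and at 524 and 341 FPKM in the untreated and Dox-treated mutant lines. PGK1, phosphoglycerate kinase, was at 573, 447, 273, 253 and 252 FPKM, with 408 and 288 FPKM in the mutant line. The low values therefore appeared at Day 2 and also in the mutant line with Dox. At Day 2, 15 of the 21 genes were below both untreated libraries, and in the Dox-treated mutant library 17 were. Of the 12341 entries above 1 FPKM, 3978 and 4044 were.

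Genes of cholesterol synthesis had a median log2 fold change at Day 1 of 0.10 against Day 0 and -0.22 against the untreated mutant line. Of 19 genes, 5 were above both and 4 were below both, beside 30.1% and 28.7% of all entries above 1 FPKM. HMGCS1, which makes the precursor of mevalonate, was listed at 104, 121, 138, 152 and 180 FPKM over Days 0 to 4, and at 157 FPKM in the mutant line both without and with Dox. At Day 4, 15 of the 19 genes were above both untreated libraries and none was below both. Of the 12341 entries above 1 FPKM, 3597 were above both and 4557 below both. No gene of either list was called against Day 0 at Day 1, where 1.76% of all entries rose and 1.65% fell.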
